A study of Mus musculus with 16 samples.

Results

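The complement system was followed in KPC1199 cells through 9 genes chosen by symbol: the initiating proteases C1ra and C1s1, the classical component C4b, the central component C3, the alternative pathway protease Cfb, and the regulators Serping1, Cd55, Cd59a and Cd46. All 9 were found in both count tables, among 55414 features with a gene identifier in the untreated table and 56980 in the table with IFNγ. KPC1199 is a mouse pancreatic ductal adenocarcinoma line from a spontaneous tumor of the KPC model, which carries Pdx-cre and a mutant Trp53 allele, and every group shared this background. Cells were transduced with lentiCRISPR v2 holding a non-targeting guide (sgCtrL, labelled WT) or the Sin3Bsg1 guide (labelled Sin3B Knockout). The untreated experiment held 2 libraries per guide. The IFNγ experiment held 3 libraries for each guide without IFNγ and 3 for each guide after 10 ng/ml IFNγ for 24 h. Only 1 Sin3B guide was sequenced. The study says in general terms that its results come from independent experiments, but the labels do not say whether the replicates of this series came from separate cultures. The p-values therefore measure only the spread between these libraries, which may be technical.

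Complement is a cascade of plasma proteases. In the classical pathway C1r cleaves C1s within the C1 complex, C1s cleaves C4, and the resulting convertase cleaves C3. Factor B supplies the protease of the alternative convertase, which amplifies C3 cleavage on surfaces. C1 inhibitor, encoded by Serping1, blocks C1r and C1s, while CD55 speeds the decay of convertases, CD46 is a cofactor for the cleavage of C3b and C4b, and CD59 stops assembly of the membrane attack complex. In mice Cd46 is known mainly from the testis, and Cr1l encodes Crry, the broadly expressed membrane cofactor. The liver is the main source of plasma complement, and many epithelial and tumor cells also transcribe these genes.

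A library of the untreated experiment held 29683181 to 32311721 estimated counts, and one of the IFNγ experiment 18128055 to 27056903. Levels are given as CPM, read counts relative to the library size scaled by TMM factors. Sin3b was lower in Sin3Bsg1 in the 3 genotype comparisons, with log2 values of -1.28 to -1.22, and Irf1 rose with IFNγ by log2 values of 3.51 in sgCtrL and 3.57 in Sin3Bsg1, so the libraries followed their labels. All 7 ductal epithelial markers were present, with a summed level of 3182 to 6401 CPM. Of 13 leukocyte markers, only Cd14 and Cd68 exceeded 3 counts, and Adgre1, Fcgr1 and Cd3e were at 0 in every library. Hepatocyte markers summed to at most 0.387 CPM and endothelial markers to at most 0.918 CPM, while acinar and endocrine markers summed to at most 2.64 CPM, with Cpa1, Ptf1a, Ins1, Ins2 and Gcg at 0. The summed level of 8 fibroblast markers was 101 CPM in sgCtrL and 30.6 to 33.6 CPM in Sin3Bsg1 in the untreated experiment. In the IFNγ experiment it was 262 to 269 CPM and 224 to 234 CPM without IFNγ, and 189 to 192 CPM and 166 to 178 CPM with IFNγ, in sgCtrL and Sin3Bsg1 respectively. Pdgfra and Pdgfrb made up most of this sum, whereas Dcn, Lum and Fap stayed at 6 counts or fewer. Acta2 reached 164 counts and Pdpn 32 in a library of the IFNγ experiment, and Thy1 reached 12 in the untreated experiment. The ductal sum also differed between groups, from at most 4756 CPM in sgCtrL to at least 6355 CPM in Sin3Bsg1 in the untreated experiment. The part of either list in the results below was not tested, and in bulk RNA fewer cells of a type cannot be told apart from less RNA per cell.

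Promoter windows were examined because the complement genes moved in different directions with IFNγ. RefSeq windows on GRCm38.p6, from 250 bases before to 50 bases after the gene start, matched 6 of the 9 genes (C3, C1s1, C1ra, Cd55, Cd59a and Cd46), and C4b, Cfb and Serping1 had no window in the table used. Both strands were searched for the IFNγ-activated motif GAS (TTCNNNGAA), the core of the ISRE motif of IRF factors (GAAANNGAA) and a kappa B motif of NF-kappaB (GGGNNTTCC). GAS, which reads the same way on both strands, occurred in 8.30% of 32851 windows, the ISRE core in 8.56% and kappa B in 5.82%. The windows of C1ra, which rose with IFNγ, of C1s1, its substrate's gene, of C3, which fell, and of Cd55, which held a kappa B match, are shown 5′ to 3′ on the gene's strand, with motif matches in capitals.
C1ra (chr6:124512371-124512670, plus strand): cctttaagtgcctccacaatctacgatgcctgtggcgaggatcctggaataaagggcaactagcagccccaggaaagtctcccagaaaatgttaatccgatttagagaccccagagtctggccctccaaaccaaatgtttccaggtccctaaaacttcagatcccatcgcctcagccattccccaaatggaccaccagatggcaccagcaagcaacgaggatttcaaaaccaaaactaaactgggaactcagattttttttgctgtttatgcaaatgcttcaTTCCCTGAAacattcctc
C1s1 (chr6:124542310-124542609, minus strand): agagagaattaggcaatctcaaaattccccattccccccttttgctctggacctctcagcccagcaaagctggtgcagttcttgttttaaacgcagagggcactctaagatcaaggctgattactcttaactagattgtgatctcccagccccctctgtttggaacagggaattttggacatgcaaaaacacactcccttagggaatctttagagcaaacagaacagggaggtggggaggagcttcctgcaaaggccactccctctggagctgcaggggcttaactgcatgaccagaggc
C3 (chr17:57228087-57228386, minus strand): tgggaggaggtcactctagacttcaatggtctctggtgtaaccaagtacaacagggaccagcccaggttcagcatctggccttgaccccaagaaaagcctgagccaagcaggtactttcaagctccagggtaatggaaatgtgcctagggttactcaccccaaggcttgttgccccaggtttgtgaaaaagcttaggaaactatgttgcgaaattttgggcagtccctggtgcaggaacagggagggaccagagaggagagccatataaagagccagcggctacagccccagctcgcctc
Cd55 (chr1:130462695-130462994, minus strand): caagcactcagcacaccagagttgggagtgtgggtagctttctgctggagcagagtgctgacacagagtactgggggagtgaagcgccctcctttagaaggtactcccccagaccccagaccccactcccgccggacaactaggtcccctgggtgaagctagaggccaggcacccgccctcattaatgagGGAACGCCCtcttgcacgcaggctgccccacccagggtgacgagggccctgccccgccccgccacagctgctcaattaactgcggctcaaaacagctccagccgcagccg
C1ra held 1 GAS match, 32 to 40 bases after its start. None of the 3 motifs was found in the C3 window or in either C1s1 window, of which the upstream one is shown. The windows use RefSeq starts, which can differ from the ends of the GENCODE gene spans given below. Both C1s1 starts appear to lie inside its span, so the absence of motifs does not cover the outer end of that span. Cd55 held 1 kappa B match 60 to 52 bases before its start, written on the opposite strand. Single ISRE core matches lay in the windows of Cd59a, 187 to 179 bases before the start, and of Cd46, 3 to 11 bases after it. These matches describe letters in a short window and say nothing of binding.

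To follow the response to IFNγ, the 3 libraries with IFNγ of each genotype were compared with its 3 libraries without IFNγ. In both genotypes 5 of the 9 genes rose (C1ra, C1s1, C4b, Cfb and Serping1) and C3 fell. Cd46 did not pass the test, and Cd55 and Cd59a were too low to be tested. Serping1 held at most 4 counts per library without IFNγ and passed the filter on low counts only through the libraries with IFNγ. Its call is therefore not independent of the filter, and the count of 5 and the medians below include it. Across the 14913 genes tested, 15.7% rose and 14.5% fell with IFNγ in sgCtrL, and 16.1% rose and 12.3% fell in Sin3Bsg1. The median log2 change over the 7 genes tested was 1.79 in sgCtrL and 1.68 in Sin3Bsg1, beside 0.00 and 0.01 over all genes tested. The 4 comparisons of the IFNγ experiment draw on the same 12 libraries, so they are not independent of each other.

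**Figure D1:**
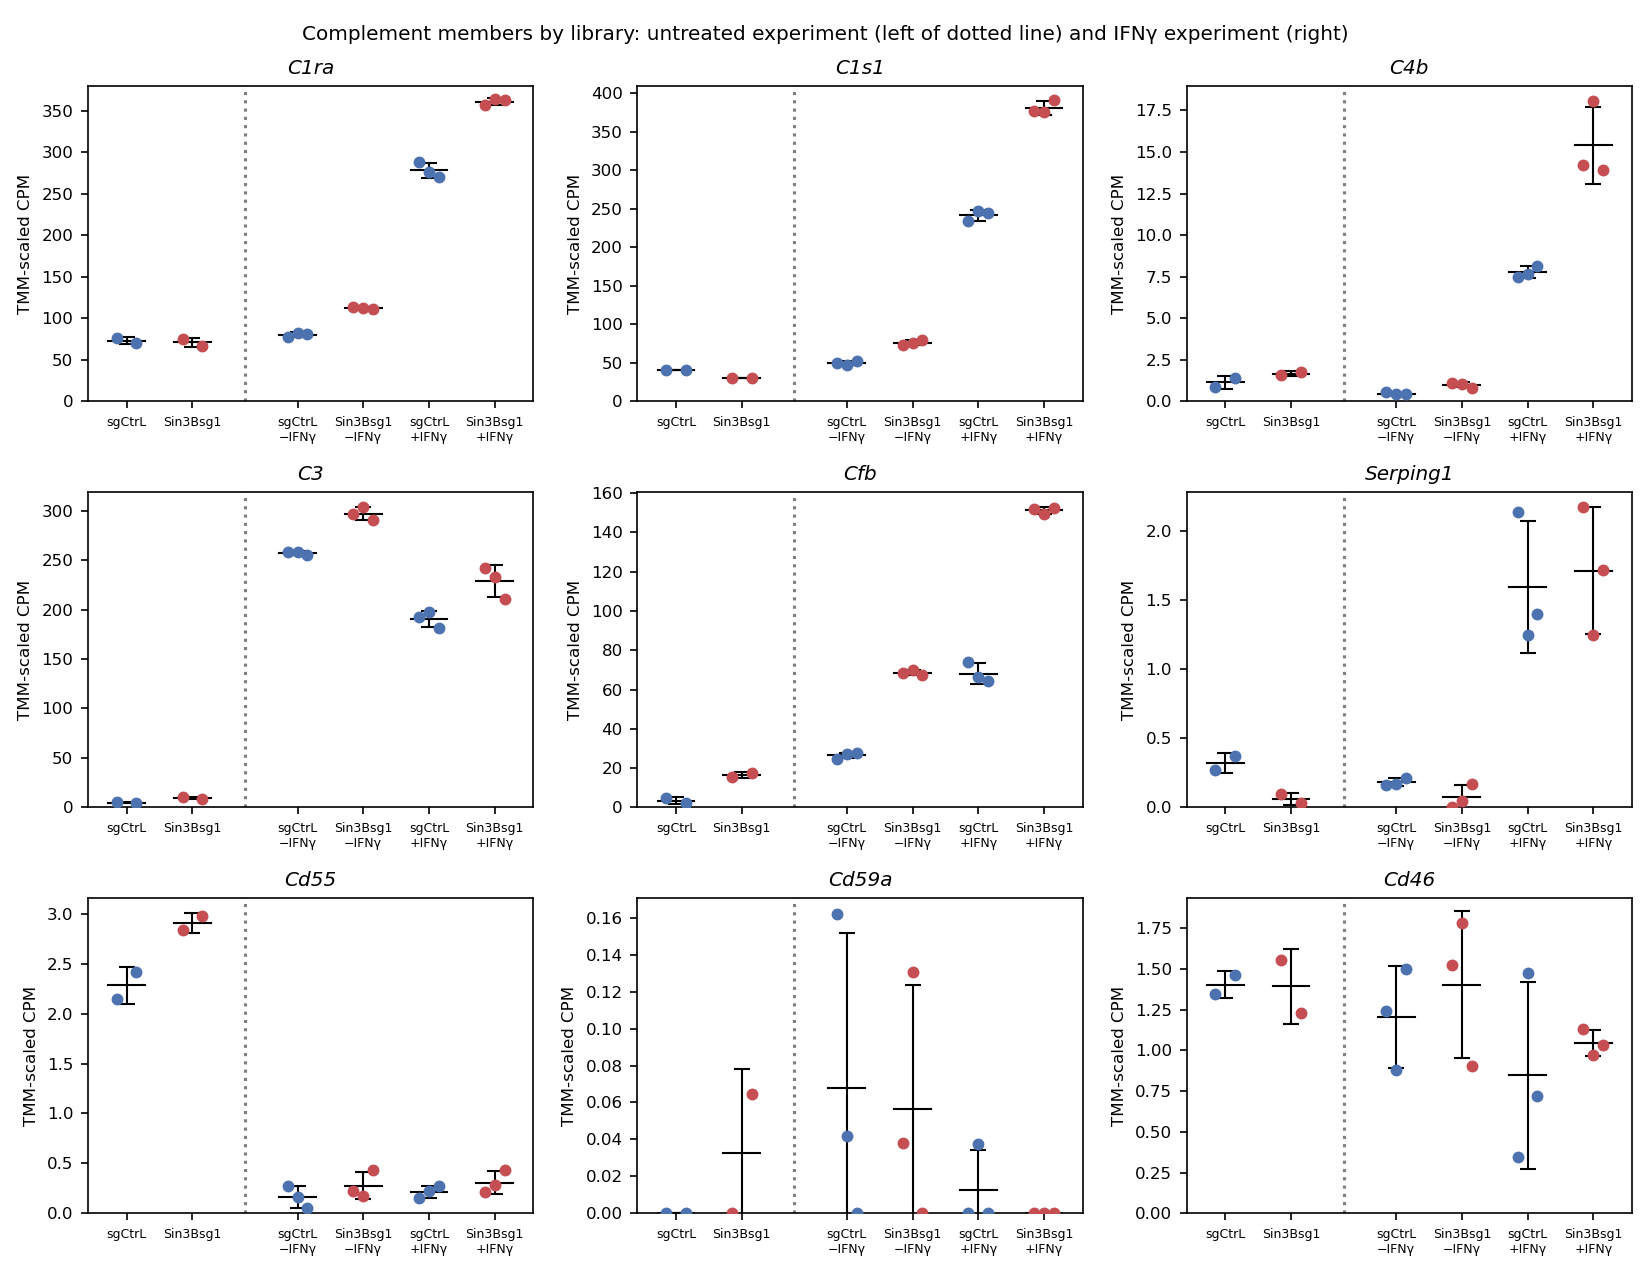
Level of each complement gene in each library, in TMM-scaled CPM on linear axes that start at 0 and differ between panels. Points are libraries (blue, sgCtrL; red, Sin3Bsg1), horizontal lines are group means and bars are SD (n = 2 left of the dotted line, n = 3 right of it), with bar ends below 0 not drawn. C1ra, C1s1, C4b, Cfb and Serping1 lie higher with IFNγ and C3 lower, and C3 is near 5 to 10 CPM in the untreated experiment against 182 CPM or more in the IFNγ experiment.

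C1ra (chromosome 6, 124489364 to 124500402, plus strand, GRCm39) encodes C1r, the protease that starts the classical cascade. It measured 77.1, 82.4 and 81.2 CPM in sgCtrL without IFNγ and 288, 276 and 269.9 CPM with it. In Sin3Bsg1 the values were 114, 112 and 112 CPM without IFNγ and 356, 364 and 363 CPM with it. None of these 4 groups overlapped. IFNγ raised C1ra 3.47-fold in sgCtrL (log2 1.79 ± 0.045, standard error, n = 3 per group, edgeR adjusted p = 1.90e-14) and 3.21-fold in Sin3Bsg1 (log2 1.68 ± 0.044, adjusted p = 3.24e-14).

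C1s1 (chromosome 6, 124507297 to 124559389, minus strand), the gene of the C1s protease, lies next to C1ra and responded more strongly. Its level was 49.6, 47.8 and 52.2 CPM in sgCtrL without IFNγ and rose to 234, 247 and 245 CPM. Sin3Bsg1 libraries held 72.9, 76.4 and 79.5 CPM without IFNγ and 377, 375 and 392 CPM with it, again without overlap between the groups. The fold change was 4.85 in sgCtrL (log2 2.28 ± 0.051, adjusted p = 4.85e-15) and 5.00 in Sin3Bsg1 (log2 2.32 ± 0.050, adjusted p = 2.42e-15). The antisense gene Gm16567 overlaps C1s1 and held 0 to 89.6 estimated counts in the IFNγ table, beside 919 counts or more for C1s1, and the strand setting of the counting is not given in the sources used here. The close copies C1rb and C1s2 had at most 5 and 10 counts in this table.

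C4b (chromosome 17, 34947354 to 34962912, minus strand) encodes C4, the substrate of C1s, and was near the detection limit before treatment. It had 10, 10 and 8 counts in sgCtrL without IFNγ, or 0.539, 0.417 and 0.428 CPM, against 7.51, 7.67 and 8.15 CPM with IFNγ. In Sin3Bsg1 it had 29, 24 and 19 counts without IFNγ, or 1.10, 1.04 and 0.817 CPM, and 14.2, 18.1 and 13.9 CPM with IFNγ. Among the 7 genes tested only Serping1 in Sin3Bsg1 changed by more: C4b rose 16.8-fold in sgCtrL (log2 4.07 ± 0.20, adjusted p = 1.55e-10) and 15.5-fold in Sin3Bsg1 (log2 3.95 ± 0.16, adjusted p = 1.21e-11). C4a, a near-identical copy, had 9 to 30 counts in the IFNγ table, so reads may have been split between the pair. With both copies summed the log2 change was smaller, 2.75 in sgCtrL and 3.03 in Sin3Bsg1, and remained past the threshold (adjusted p = 6.83e-09 and 2.92e-10).

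C3 (chromosome 17, 57510964 to 57535155, minus strand), on which all complement pathways converge, went the other way. It measured 259, 258 and 255 CPM in sgCtrL without IFNγ and 193, 198 and 182 CPM with it. The Sin3Bsg1 libraries held 297, 304 and 291 CPM without IFNγ and 242, 233 and 211 CPM with it, and no group overlapped another. The decrease was 1.35-fold in sgCtrL (log2 -0.43 ± 0.052, adjusted p = 1.08e-05) and 1.30-fold in Sin3Bsg1 (log2 -0.38 ± 0.052, adjusted p = 4.01e-05).

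Cfb (chromosome 17, 35074852 to 35081559, minus strand), which encodes factor B, rose with IFNγ from 24.7, 27.0 and 27.5 CPM to 73.9, 66.2 and 64.2 CPM in sgCtrL. In Sin3Bsg1 it rose from 68.2, 69.8 and 67.6 CPM to 152, 149 and 153 CPM. The Sin3Bsg1 libraries without IFNγ lay within the range of the sgCtrL libraries with IFNγ. IFNγ raised Cfb 2.58-fold in sgCtrL (log2 1.37 ± 0.060, adjusted p = 3.60e-11) and 2.21-fold in Sin3Bsg1 (log2 1.14 ± 0.054, adjusted p = 9.75e-11).

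Of the regulators, only Serping1 (chromosome 2, 84595705 to 84620873, minus strand) was called as higher with IFNγ. It passed the filter on low counts only through the libraries with IFNγ, and Cd55 and Cd59a did not pass it in this experiment. Serping1 had 3, 4 and 4 counts in sgCtrL without IFNγ and 43, 33 and 31 with it. In Sin3Bsg1 it had 0, 1 and 4 counts without IFNγ and 52, 31 and 40 with it. The ratio of the summed counts, scaled to library size, was 8.65 in sgCtrL (95% interval 4.65 to 17.9) and 24.8 in Sin3Bsg1 (95% interval 10.3 to 77.7), and these intervals cover counting error only. The fitted log2 changes were 3.10 ± 0.51 (adjusted p = 2.43e-04) and 4.52 ± 0.57 (adjusted p = 1.66e-05). The Sin3Bsg1 value rests on 5 counts without IFNγ. It became 6.06 without replicate 3 of that group, which held 4 of them (adjusted p = 1.74e-05), and 3.92 without replicate 1, which held 0 (adjusted p = 1.08e-04).

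The membrane regulators were low throughout the IFNγ experiment. Cd46 (chromosome 1, 194719134 to 194774561, minus strand) had 7 to 41 counts per library, and its log2 change with IFNγ was -0.45 (95% interval -1.35 to 0.45) in sgCtrL and -0.43 (-1.28 to 0.43) in Sin3Bsg1, so both intervals span changes of either sign. Cd55 (chromosome 1, 130366469 to 130390926, minus strand) had 1 to 10 counts in the 12 libraries. Cd59a (chromosome 2, 103926132 to 103947029, plus strand) had at most 3 counts, and was at 0 in all Sin3Bsg1 libraries with IFNγ, where a count of 0 allows up to 3 counts per library. Their copies Cd55b and Cd59b had 0 counts and at most 3 counts.

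To compare the genotypes in the IFNγ experiment, Sin3Bsg1 was set against sgCtrL without and with IFNγ. The same 5 genes (C1ra, C1s1, C4b, C3 and Cfb) were higher in Sin3Bsg1 in both states, and none was lower. Among all genes tested 7.89% were higher and 9.33% lower in Sin3Bsg1 without IFNγ, and 8.62% were higher and 7.90% lower with IFNγ. The median log2 difference of the 7 genes tested was 0.49 without and 0.38 with IFNγ, beside -0.01 and 0.00 over all genes tested. The groups did not overlap for any of the 5 genes in either state, as the values above show.

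Of the 5 genes that passed the test, Cfb and C4b differed most between the genotypes. Cfb was 2.59-fold higher in Sin3Bsg1 without IFNγ (log2 1.38 ± 0.060, adjusted p = 5.10e-10) and 2.22-fold higher with it (log2 1.15 ± 0.054, adjusted p = 1.06e-09). C4b was 2.15-fold higher without IFNγ (log2 1.11 ± 0.27, adjusted p = 0.00867) and 1.98-fold higher with it (log2 0.99 ± 0.12, adjusted p = 3.69e-05). Summed with C4a, the C4 pair differed by a log2 value of 0.66 without IFNγ (adjusted p = 0.0444) and 0.93 with it (adjusted p = 1.22e-04).

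The C1 proteases and C3 differed by less than 2-fold. C1s1 was 1.53-fold higher in Sin3Bsg1 without IFNγ (log2 0.61 ± 0.051, adjusted p = 5.14e-07) and 1.58-fold higher with it (log2 0.66 ± 0.047, adjusted p = 1.06e-07). C1ra was 1.40-fold and 1.30-fold higher (log2 0.49 ± 0.044 and 0.38 ± 0.042, adjusted p = 1.37e-06 and 1.43e-05). C3 was 1.15-fold higher without IFNγ (log2 0.21 ± 0.052, adjusted p = 0.0111) and 1.20-fold higher with it (log2 0.26 ± 0.052, adjusted p = 0.00249). The C3 difference without IFNγ lost its call when Sin3Bsg1 replicate 2 of that state was left out (log2 0.19, adjusted p = 0.0527). Serping1 and Cd46 did not pass the test in either state. For Serping1 the log2 difference was -1.31 (95% interval -3.01 to 0.39) without IFNγ and 0.11 (-0.69 to 0.92) with it, and for Cd46 it was 0.23 (-0.63 to 1.09) and 0.26 (-0.64 to 1.15).

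**Figure D2:**
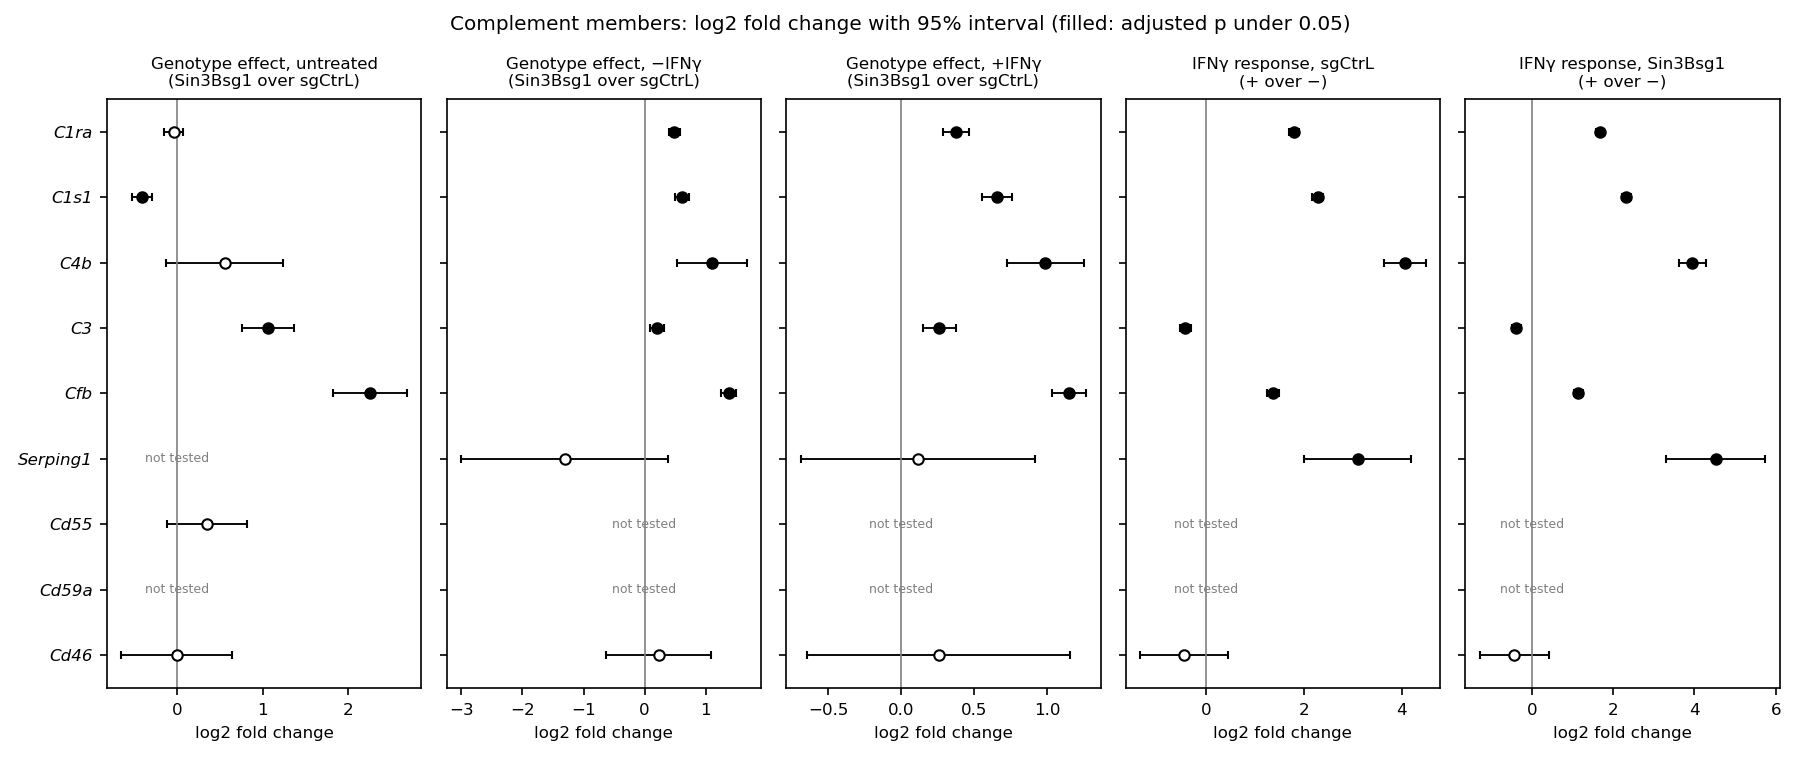
Log2 fold changes of the complement genes in 5 comparisons, with 95% intervals of the edgeR fit (filled points, adjusted p under 0.05), on horizontal axes that differ between panels. In the IFNγ experiment C1ra, C1s1, C4b, C3 and Cfb pass the test above 0 in both genotype comparisons, whereas in the untreated experiment C1s1 lies below 0 at -0.41.

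Whether the IFNγ response differed between the genotypes was tested with the interaction of genotype and IFNγ. None of the 7 genes passed the edgeR threshold, beside 0.114% of all genes tested. At an unadjusted p under 0.05 edgeR gave 1 gene, Cfb, and DESeq2 gave 2 before and 0 after adjustment. The Cfb response was smaller in Sin3Bsg1 by a log2 value of -0.22 (95% interval -0.39 to -0.05, adjusted p = 0.746). The intervals of the other differences were -0.10 to 0.21 for C3, -0.10 to 0.19 for C1s1, -0.24 to 0.02 for C1ra, -0.72 to 0.48 for C4b, -1.21 to 1.26 for Cd46 and -0.45 to 3.30 for Serping1, so that for C4b, Cd46 and Serping1 sizeable differences were not detectable here.

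Expressed per length as TPM, the order of the genes changed with IFNγ. In sgCtrL without IFNγ C3 came first at 110 ± 1.34 TPM (SD, n = 3), followed by C1ra at 58.9 ± 1.57, C1s1 at 37.6 ± 1.93 and Cfb at 21.1 ± 1.08 TPM, with no overlap between neighbours. With IFNγ C1ra led at 194 ± 7.14 TPM, followed by C1s1 at 173 ± 4.41, C3 at 77.1 ± 2.51 and Cfb at 51.7 ± 4.08 TPM, again without overlap. Thus in sgCtrL C3 stood above C1ra and C1s1 without IFNγ and below both with it. In Sin3Bsg1 the order without IFNγ was the same, with C3 at 128 ± 2.57 TPM, but C1s1 at 58.3 ± 2.82 and Cfb at 55.6 ± 0.857 TPM overlapped. With IFNγ the Sin3Bsg1 order was C1s1 at 273 ± 6.95, C1ra at 252 ± 5.86, Cfb at 115 ± 4.11 and C3 at 92.7 ± 9.32 TPM, with no overlap between neighbours. C4b and Serping1 stayed at 5.96 TPM or less on average in every group, and Cd46, Cd55 and Cd59a at 0.495 TPM or less in the IFNγ experiment.

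The genes whose profiles over the 12 libraries were closest to each responding gene were found by the root mean square difference of centred log2 CPM. For C3 they were Slc20a1 and Gm42427 (0.049 each), for C1ra Cx3cl1 (0.084) and Samd9l (0.12), and for C1s1 Neurl3 (0.16) and Fst (0.20). Cfb lay closest to Tent5a (0.15) and Prl2c2 (0.17), C4b to the antigen-processing transporter Tap2 and the MHC gene H2-T23 (0.33 each), and Serping1 to Phf11a (0.40) and Tubb3 (0.41). This describes likeness over these 12 libraries, which share their groups, and says nothing of shared control.

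In the untreated experiment, which asks for the genotype effect in cells outside the IFNγ design, 7 of the 9 genes could be tested. C3 and Cfb were higher and C1s1 lower in Sin3Bsg1, and C1ra, C4b, Cd55 and Cd46 did not pass the test. Among the 14589 genes tested 15.1% were higher and 16.0% lower. The median log2 difference of the 7 genes was 0.35, beside 0.00 over all genes tested.

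C3 measured 4.91 and 4.25 CPM in sgCtrL and 10.3 and 8.81 CPM in Sin3Bsg1, without overlap. It was 2.09-fold higher in Sin3Bsg1 (log2 1.06 ± 0.14, n = 2 per group, adjusted p = 2.25e-05). C1s1 measured 40.5 and 40.6 CPM in sgCtrL and 30.5 CPM in both Sin3Bsg1 libraries, a 1.33-fold lower level (log2 -0.41 ± 0.056, adjusted p = 2.87e-05). This is the opposite direction to the IFNγ experiment, and no test joins the 2 experiments. C1ra, its neighbour, measured 76.0 and 70.0 CPM in sgCtrL and 74.9 and 67.0 CPM in Sin3Bsg1, and the groups overlapped (log2 -0.04, 95% interval -0.15 to 0.07).

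Cfb in the untreated experiment needs a second reading, because the table assigns most reads of the locus to Gm20547. Gm20547 is a readthrough gene that overlaps Cfb on the same strand. It held 490.1 and 502.5 estimated counts in sgCtrL and 1250.5 and 1258.7 in Sin3Bsg1, whereas Cfb itself held 139.9 and 63.5 in sgCtrL and 492.5 and 543.3 in Sin3Bsg1. Thus 69.9 to 88.8% of the summed counts went to Gm20547 in the untreated table, and at most 0.0773% in the IFNγ table. The upstream gene C2 had at most 9 counts in any library. By the deposited Cfb counts alone, Cfb was 4.80-fold higher in Sin3Bsg1 (log2 2.26 ± 0.20, adjusted p = 2.94e-07), a value that ran from 1.81 without sgCtrL replicate 2 to 2.94 without sgCtrL replicate 1. With the counts summed, an alternative chosen after seeing the data, the level was 20.2 ± 1.35 CPM in sgCtrL and 56.3 ± 2.89 CPM in Sin3Bsg1 (SD, n = 2). The sum was 2.78-fold higher in Sin3Bsg1 (log2 1.48 ± 0.064, adjusted p = 4.31e-11). Summing left the log2 values of the IFNγ experiment at 1.38 and 1.15 for the genotype and at 1.37 and 1.14 for IFNγ.

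**Figure D3:**
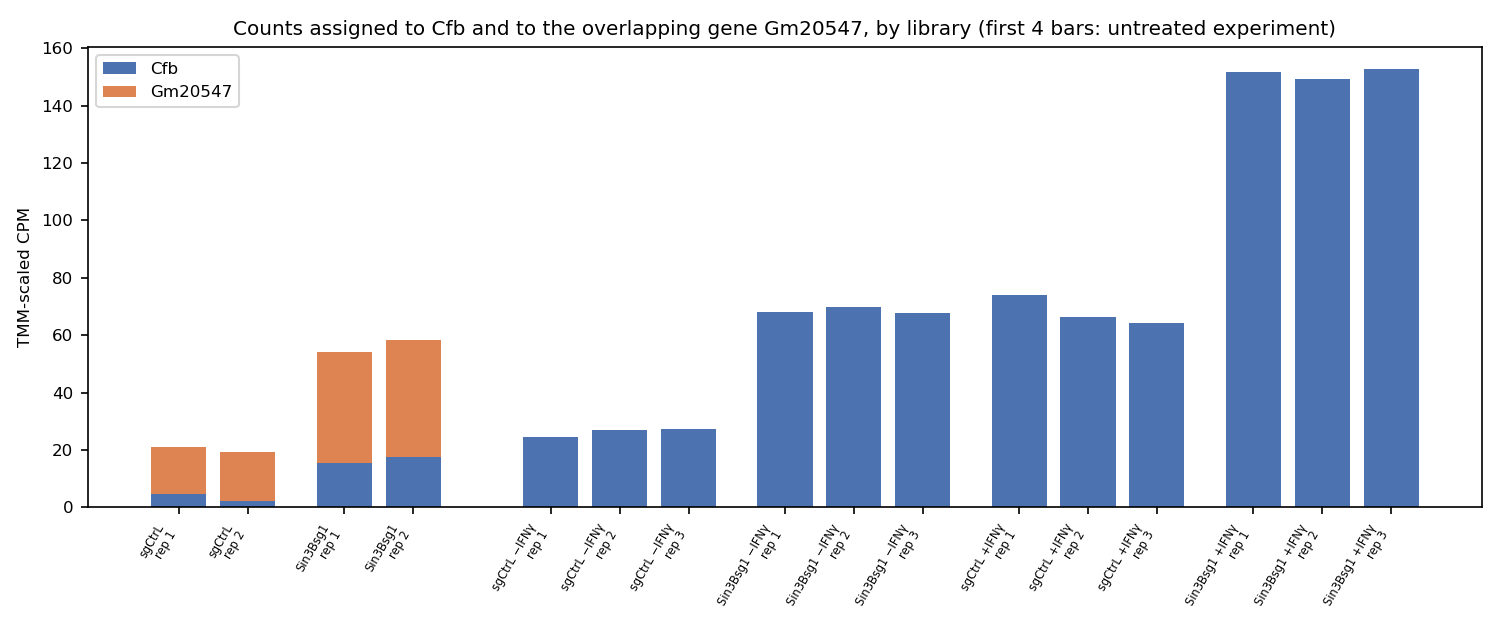
TMM-scaled CPM assigned to Cfb (blue) and to the overlapping readthrough gene Gm20547 (orange), stacked for each of the 16 libraries. In the 4 untreated libraries Gm20547 takes 69.9 to 88.8% of the sum, and in the 12 libraries of the IFNγ experiment Cfb takes nearly all of it. The sums are higher in Sin3Bsg1 than in sgCtrL in each of the 3 states.

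The remaining genes of the untreated experiment were low. C4b measured 0.874 and 1.40 CPM in sgCtrL and 1.56 and 1.78 CPM in Sin3Bsg1, and did not pass the test (log2 0.56, 95% interval -0.13 to 1.24, adjusted p = 0.22). Cd55 had 64 and 71 counts in sgCtrL and 91 and 92 in Sin3Bsg1, and did not pass it either (log2 0.35, 95% interval -0.12 to 0.81, adjusted p = 0.261). Cd46 had 40 and 43 counts in sgCtrL and 50 and 38 in Sin3Bsg1, so the groups overlapped (log2 -0.01, 95% interval -0.65 to 0.64). Serping1 was below the filter on low counts, with 8 and 11 counts in sgCtrL and 3 and 1 in Sin3Bsg1. Its summed counts in Sin3Bsg1 were 0.198 times those in sgCtrL after scaling (95% counting interval 0.0489 to 0.595), which compares these libraries and not the genotypes. Cd59a had 0 counts except for 2 in 1 Sin3Bsg1 library.

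Set side by side without a test, C3 and Cd55 stood at different levels in the 2 experiments. In sgCtrL C3 averaged 4.58 CPM in the untreated experiment and 257 CPM without IFNγ in the IFNγ experiment, 56.2-fold apart, and in Sin3Bsg1 9.57 and 297 CPM, 31.0-fold apart. Of 13841 genes tested in both tables, 15, with C3 itself among them, were at least as far apart as C3 in sgCtrL. Cd55 went the other way, from 2.28 to 0.163 CPM in sgCtrL and from 2.91 to 0.277 CPM in Sin3Bsg1. In sgCtrL C1ra averaged 73.0 and 80.2 CPM, C1s1 40.6 and 49.9 CPM, and the sum of Cfb and Gm20547 20.2 and 26.4 CPM. In Sin3Bsg1 C1ra averaged 70.9 and 112 CPM (1.58-fold apart), C1s1 30.5 and 76.3 CPM (2.50-fold apart), and the sum of Cfb and Gm20547 56.3 and 68.5 CPM. These gaps were smaller than those of C3 and Cd55 in both genotypes. The tables were normalized separately, and what else differed between the experiments cannot be told apart from these levels. Of the 324 assembled loci without a gene identifier in the untreated table, 249 carry a protein description and none names C3, CD55 or factor B.

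To place the 9 genes among the rest of the system, 50 other complement genes were listed, of which 15 could be tested in each experiment. In the untreated experiment 6 were higher and 2 lower in Sin3Bsg1, beside 15.1% and 16.0% of all genes tested. With IFNγ 2 rose and 4 fell in sgCtrL (15.7% and 14.5% of all genes), and 2 rose and 5 fell in Sin3Bsg1 (16.1% and 12.3%). Thus the 2 of 15 that rose are near the share over all genes. Without IFNγ 3 were higher and 2 lower in Sin3Bsg1 (7.89% and 9.33% of all genes), and with IFNγ 4 were higher and 2 lower (8.62% and 7.90%). No gene of the list passed the edgeR threshold for the interaction (0 at an unadjusted p under 0.05), and DESeq2 also called 0. The median log2 change with IFNγ was -0.28 in sgCtrL and -0.24 in Sin3Bsg1, and the median genotype difference was 0.14 without and 0.26 with IFNγ and 0.12 in the untreated experiment. Over all genes tested these medians lay between -0.01 and 0.01.

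Clu, which encodes clusterin, a fluid-phase inhibitor of the membrane attack complex, was higher in Sin3Bsg1 in every state and lower with IFNγ. It averaged 306 ± 7.32 CPM in sgCtrL and 1041 ± 38.9 CPM in Sin3Bsg1 without IFNγ, and 168 ± 17.4 and 630 ± 10.3 CPM with it (SD, n = 3). In the untreated experiment it averaged 303 ± 8.58 and 1141 ± 22.7 CPM (SD, n = 2). It was higher in Sin3Bsg1 by log2 values of 1.77, 1.90 and 1.91 in these 3 comparisons (adjusted p of at most 7.79e-11), and fell with IFNγ by 0.86 and 0.73 on the log2 scale.

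Regulators of C3b showed unlike patterns. Cfhr2, which belongs to a family of close copies so that reads may be shared, was higher in Sin3Bsg1 in all 3 comparisons (log2 1.54, 1.85 and 1.90) and fell with IFNγ in both genotypes (log2 -1.07 and -1.02). Cfi, the protease that inactivates C3b, averaged at most 1.12 CPM. In the untreated experiment Cfi had 6 and 15 counts in sgCtrL and 40 and 31 in Sin3Bsg1, and was called as higher in Sin3Bsg1 (log2 1.65, adjusted p = 0.0139). It passed the filter on low counts there through the Sin3Bsg1 libraries. This call is therefore not independent of the filter, and the 6 listed genes counted as higher include it. Cfi fell with IFNγ in Sin3Bsg1 (log2 -2.36, adjusted p = 0.0025), in an experiment where it had only 2 to 38 counts per library. Cr1l, the gene of Crry, was detected at 40.5 to 49.6 CPM on average in the 6 groups, and was higher in Sin3Bsg1 in the untreated experiment (log2 0.19, adjusted p = 0.0138) and with IFNγ (log2 0.27, adjusted p = 0.00304).

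Of the genes acting on C4 or at the start of the cascade, Masp1, a protease of the lectin pathway, was higher in Sin3Bsg1 without and with IFNγ (log2 1.18 and 0.999) and fell with IFNγ (log2 -0.66 in sgCtrL and -0.84 in Sin3Bsg1). C1rl, a relative of C1r, rose with IFNγ by 0.40 and 0.41 on the log2 scale in sgCtrL and Sin3Bsg1. C4bp, the C4b-binding protein, was called as lower in Sin3Bsg1 only in the untreated experiment (log2 -0.69, adjusted p = 0.023), and the difference between experiments was not tested. C4bp had 64 to 103 counts per library there and 3 to 29 in the IFNγ experiment, where such a difference may go undetected. C1qbp, a protein that binds C1q and is also mitochondrial, rose with IFNγ in sgCtrL (log2 0.16, adjusted p = 0.0248).

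Further inhibitors moved both ways. Cpn1, a carboxypeptidase subunit that trims anaphylatoxins, was higher in Sin3Bsg1 in the untreated experiment (log2 2.36, adjusted p = 4.65e-06) and fell with IFNγ in both genotypes (log2 -2.05 and -1.63). Thbd, which encodes thrombomodulin, a cofactor that also dampens complement, was lower in Sin3Bsg1 in all 3 comparisons (log2 -0.49, -1.13 and -0.89) and rose with IFNγ in Sin3Bsg1 (log2 0.40, adjusted p = 0.0344).

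**Figure D4:**
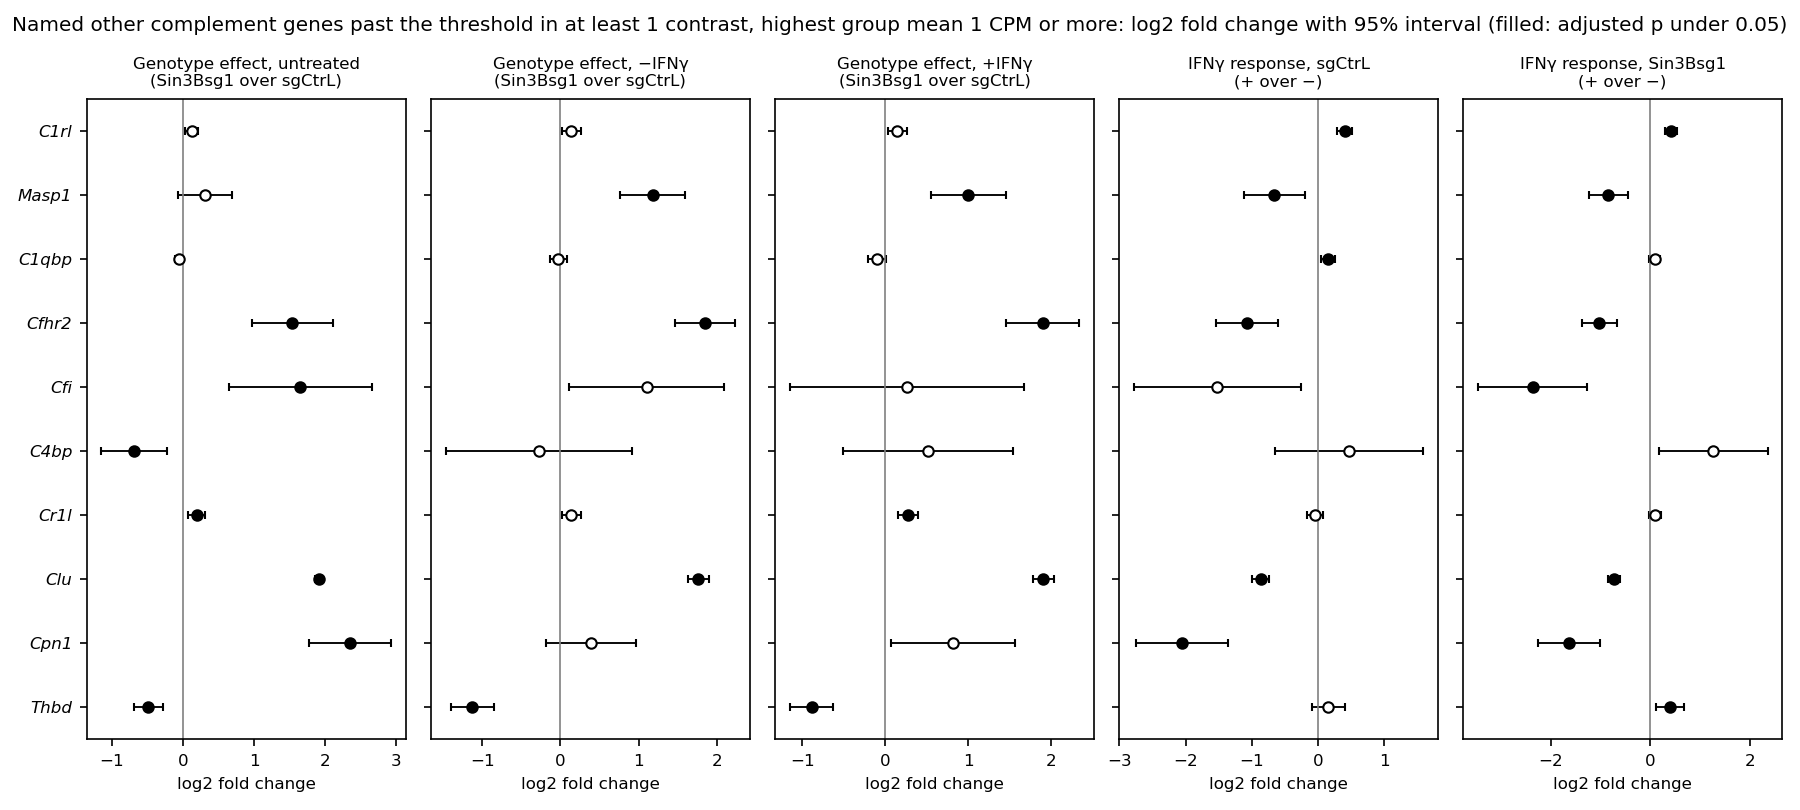
Log2 fold changes of 10 other complement genes in 5 comparisons, with 95% intervals of the edgeR fit (filled points, adjusted p under 0.05), on horizontal axes that differ between panels. Clu and Cfhr2 lie above 0 in the 3 genotype comparisons and below 0 in both IFNγ comparisons, while Thbd lies below 0 in the 3 genotype comparisons.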

How the data were processed

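RNA-seq was available from 16 libraries of KPC1199 cells, 4 in the untreated and 12 in the IFNγ experiment. Each experiment has a table of estimated counts per gene, deposited by the authors as not normalized values beside their group means, which were not used. The paper's methods name HISAT2 on mm9 and featureCounts, whereas the submitters' processing notes name fastp, HISAT2, StringTie and mm39, without versions. The strand setting is not given in the sources used here, and reads shared between copies or overlapping genes could be split. Control columns are named after a lacZ guide and were read as sgCtrL, since no guide besides it and Sin3Bsg1 is present.

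Counts were rounded, and 324 assembled loci without a gene identifier were left out (0.615 to 0.677% of the counts of an untreated library). Differences were tested with edgeR 4.0.16 in R 4.3.3 (TMM, filterByExpr, glmQLFit, glmQLFTest, two-sided), with Benjamini-Hochberg adjustment over all 14589 and 14913 genes tested and a threshold of 0.05. The 12 libraries shared 1 fit with a mean per group, and each table was fitted apart. Standard errors were taken as the size of the log2 change over the root of F, and intervals from its t distribution. The biological coefficient of variation was 2.84% and 6.78%. Library totals set the precision, and intervals of summed counts are exact. DESeq2 1.42.0, its size factors, other filters, a replicate block, left-out libraries, only the compared groups and summed copies were tried. Fits were tested on simulated data.

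The 9 genes, the list of 50 and the marker lists were chosen with earlier results of these data known. By the rule used, all 9 genes were named, and of the 50 those past the threshold in at least 1 comparison with a group mean of at least 1 CPM. A few items are not reported here, though counts and medians over the lists include them. Positions follow GENCODE on GRCm39. TPM used the deposited gene lengths. Figures were drawn with matplotlib 3.10.9.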

Additional observations from a re-analysis of the deposited data

Results flagged for a closer look

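The genotype effect on C1s1 had opposite signs in the 2 experiments, and every library followed the sign of its experiment. Its log2 difference between Sin3Bsg1 and sgCtrL was 0.613 without IFNγ in the IFNγ experiment (edgeR adjusted p = 5.14e-07) and -0.411 in the untreated experiment (adjusted p = 2.87e-05). The difference between the experiments was not tested, because the tables are separate.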

How the results depend on the processing

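The 25 called log2 values of the complement genes kept their sign in all 453 alternative values, and 452 stayed past the threshold. The exception was the C3 genotype difference without IFNγ when Sin3Bsg1 replicate 2 of that state was left out (0.19). Part of the alternative values come from fits that left out a library outside the compared groups. Such fits hardly move the log2 value, so they are not a separate check of it. The counts of the 9 genes called were 6, 6, 5, 5, 3 and 0 for IFNγ in sgCtrL, IFNγ in Sin3Bsg1, genotype without and with IFNγ, genotype in the untreated experiment and the interaction, and moved only to 4 for genotype without IFNγ in that fit. Fitting only the compared groups gave 3996 genes for the genotype without IFNγ (main 2568) and 1500 with it (main 2464). The interaction count of 17 genes became 32 with DESeq2, 110 with no filter and 1 to 33 with a library left out, and the cause was not tested. Of values that were not called, 15 changed sign. With paralog pairs summed the C4b interaction became 0.27. With a library left out, the untreated genotype values ran from -0.12 to 0.036 for C1ra (reversed at 0.020 and 0.036) and from -0.19 to 0.15 for Cd46 (reversed at 0.054 and 0.15). The genotype values with IFNγ ran from -0.079 to 0.94 for Cd46 and from -0.098 to 0.39 for Serping1 (reversed at -0.038 and -0.098). The interaction ran from -0.013 to 0.090 for C3 and from -0.33 to 0.69 for Cd46, with -0.16, -0.094, -0.21, -0.063 and -0.0047 among its reversed values. Whether the replicate numbers pair the libraries was not tested. In the IFNγ experiment deviations of same-numbered libraries correlated at r of -0.029 to 0.119 over 18 pairs. Those of different-numbered libraries correlated at -0.133 to 0.060 over 36 pairs. In the untreated experiment the values were 0.013 and -0.013. With 2 libraries per group, centring on the group mean forces such mirror images, so these values cannot decide it. A replicate block left the counts of the 9 genes at 6, 6, 5, 5, 3 and 0, with 4400, 4207, 2511, 2389, 4675 and 13 genes called in all. Depth limits Serping1, Cd46, Cd55 and Cd59a, which had 52 counts or fewer per library except Cd55 in the untreated experiment.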
